A study of Homo sapiens with 28 samples.

Results

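The comparison described here is that of SOX1-/- (knockout, KO) neural progenitor cells cultured under the labels CT1.0 and CT0.4 and collected on day 8. Its members are 4 libraries of 28 in the series: KO lines 26 and 48 in CT1.0 against the same line numbers in CT0.4. All were made from H9, an established human embryonic stem cell line, and poly(A)-selected RNA was sequenced. A gene was tested where its abundance, in TPM, the deposited length-scaled share of transcripts, was at least 1 in at least 2 of these 4 libraries, which 20612 of 58219 listed genes were. Both groups carry the SOX1-/- genotype and differ, by the labels, in CT alone. What CT stands for is not stated by the labels, and the number after it carries no unit. The wild type (WT) groups used for comparison are H9 lines 1 and 2 with SOX1, in CT0.4 and CT1.0 on day 8, and the KO groups of day 4 are lines 26 and 48 in the same labels. The labels do not say whether 26, 48, 1 and 2 are clones or separate cultures, so the p-values measure only the spread between these samples, which may be technical.

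Along the early neural tube, position is read from transcription factors that meet at borders. OTX2 marks the forebrain and midbrain and GBX2 the hindbrain, and the isthmus between them secretes FGF8 and FGF17 and expresses the EN and PAX2/5/8 factors. HOX genes begin behind the isthmus, where retinoic acid and its degrading enzyme CYP26A1 act, while the dorsal midline, the roof plate, is made with LMX1A, MSX1 and BMP and WNT ligands. SOX1, which binds DNA and belongs with SOX2 and SOX3 to the SOX B group, appears early as cells become neural. The comparison asks how far the labels still differ in cells that lack it.

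SOX1 itself stood at 0.813 and 2.09 TPM in KO CT0.4 lines 26 and 48 and at 1.14 and 2.77 TPM in KO CT1.0. In WT the CT0.4 libraries held 11.3 and 15.7 TPM, those of CT1.0 72.1 and 79.4 TPM. All 4 KO libraries were below all 4 WT libraries, and within KO the label difference was not called (log2 fold change 0.26, adjusted p = 0.643). "Called" means here an adjusted p under 0.05 in limma's moderated test of log2(TPM + 1) values, on which changes of genes of low level come out too small. Genes of neural progenitors were present in each of the 4 KO libraries: SOX2, the pluripotency and neural stem cell factor, ran from 95.1 to 217 TPM and NES, a neural intermediate filament, from 177 to 410 TPM.

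Ribosomal protein genes, 86 in number, took up 16.3 to 18.1% of TPM in the KO CT0.4 libraries and 29 to 31.7% in KO CT1.0, against 17.4 to 17.9% and 22.6 to 24.1% in the WT pairs. Since TPM sums to a fixed total, this moves with the level of all other genes: the median log2 fold change over all tested genes was -0.23, and it was 0.00 after median-ratio scaling of the columns. Each of the 4 KO libraries listed between 19477 and 20288 genes at a TPM of 1 or more, and the KO pairs correlated across genes at 0.959 (CT0.4) and 0.952 (CT1.0). The read depth behind these values is unknown. The labels name 2 sequencing formats without saying which library had which, so a batch of that kind cannot be told apart from the groups.

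The 2 labels differed in a large part of the KO transcriptome. Of the genes tested, 1324 (6.42%) were higher and 5470 (26.5%) lower in CT1.0, which is 33.0% in all. After median-ratio scaling the split was 2414 (11.7%) higher and 2812 (13.6%) lower, so the excess of lower genes is given with this shift beside it. A difference of at least 1 on the log2 scale was reached by 616 of the higher and 1581 of the lower genes. In bulk RNA, fewer cells of a type and less RNA per cell cannot be told apart. Each list of genes below is set against the shares 6.42% and 26.5%, which are shown as dotted lines in the bar plot of the lists.

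**Figure D1:**
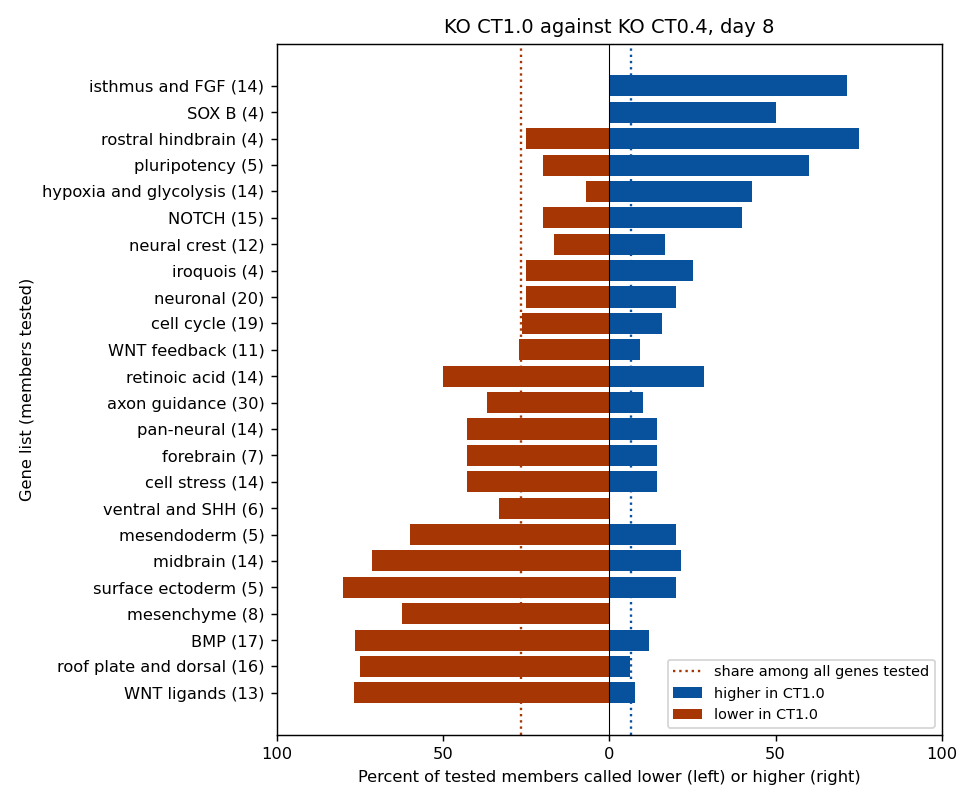
Share of the tested members of each gene list that were called lower (left, brown) or higher (right, blue) in KO CT1.0 than in KO CT0.4 on day 8, in percent, with the number tested in parentheses and dotted lines at the shares among all genes tested (26.5% lower, 6.42% higher). The isthmus and FGF list has 10 of 14 members higher and none lower, while the WNT ligand, roof plate and BMP lists have most members lower.

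HOXA2, HOTAIRM1 and CYP26A1 were at or near 0 in KO CT0.4 and well above it in KO CT1.0. HOXA2 (hg38, chromosome 7, 27100354 to 27102811, minus strand), a HOX gene of the anterior hindbrain, was listed at 0 in both KO CT0.4 libraries and held 7.60 and 17 TPM in KO CT1.0 lines 26 and 48. It was called (adjusted p = 5.11e-05), and no fold is given against a group listed at 0. HOTAIRM1 (chromosome 7, 27095647 to 27100265, plus strand), a long noncoding RNA beside HOXA2, stood at 0.131 and 0 TPM against 147 and 178 TPM (log2 fold change 7.26, SE 0.57, adjusted p = 9.06e-08). The groups did not overlap for either gene. By these coordinates HOTAIRM1 ends before HOXA2 begins. No label says whether the reads carry strand, so reads from any other gene that overlaps either on the opposite strand cannot be told apart.

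CYP26A1, which breaks down retinoic acid, stood at 0.280 and 0.146 TPM in KO CT0.4 and at 39.5 and 69.4 TPM in KO CT1.0 (log2 fold change 5.46, SE 0.55, adjusted p = 1.04e-06). CRABP1, a carrier of retinoic acid in the cytoplasm, went from 616 and 291 TPM to 1593 and 3524 TPM (log2 2.48, adjusted p = 1.96e-05). Both KO CT1.0 values were above both KO CT0.4 values, although each pair of libraries spread by about the same factor. RARB, a retinoic acid receptor, held 0.804 and 0.300 TPM against 1.74 and 4.06 TPM (log2 1.28, adjusted p = 0.0216), and this call ended without the KO CT1.0 library of line 48 (adjusted p = 0.209) and without the KO CT0.4 library of line 48 (adjusted p = 0.152). RDH10, which makes retinal for retinoic acid synthesis, fell from 38.4 and 38.2 TPM to 3.56 and 5.93 TPM (log2 -2.81, adjusted p = 1.46e-06). ALDH1A2, the main retinoic acid synthesising enzyme of the embryo, was at 2.04 and 1.11 TPM against 1.26 and 3.99 TPM and was not called (log2 0.41, adjusted p = 0.481). Of 14 tested genes of the retinoic acid list 4 were higher and 7 lower, as after scaling, and the list's median log2 fold change was -0.58.

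The RefSeq promoter windows of CYP26A1 and RARB are shown, both genes being higher in KO CT1.0. They were picked also because both windows hold a repeat by which retinoic acid receptors bind DNA. It was searched as GTTCA, any 5 bases and AGTTCA, in this order, on both strands. Other spellings or spacings of such repeats were not searched. Capitals mark the match. The windows run from 250 bases before to 50 bases after the transcript start that RefSeq's table uses on GRCh38.p14, at chr10:93073643-93073942 (plus strand) and chr3:25428013-25428312 (plus strand).
CYP26A1: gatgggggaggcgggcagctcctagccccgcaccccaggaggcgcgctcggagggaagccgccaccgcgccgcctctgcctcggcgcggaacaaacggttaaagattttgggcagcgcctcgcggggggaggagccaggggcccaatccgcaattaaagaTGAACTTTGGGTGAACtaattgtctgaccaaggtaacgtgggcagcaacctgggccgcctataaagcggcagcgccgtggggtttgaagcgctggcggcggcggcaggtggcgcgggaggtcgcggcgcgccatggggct
RARB: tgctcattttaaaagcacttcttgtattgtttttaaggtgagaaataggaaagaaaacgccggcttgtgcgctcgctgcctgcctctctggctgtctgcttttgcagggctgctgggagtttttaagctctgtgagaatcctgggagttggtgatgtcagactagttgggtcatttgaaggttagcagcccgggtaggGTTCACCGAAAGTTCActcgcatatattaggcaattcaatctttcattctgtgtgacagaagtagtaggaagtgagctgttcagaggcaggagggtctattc
Both starts lie inside the gene as GENCODE draws it, chromosome 10, 93073475 to 93077890, for CYP26A1 and chromosome 3, 25174332 to 25597932, for RARB, so that the window of RARB is at an internal start, while the TPM is of the whole gene. The match begins 90 bases before that start in CYP26A1, where it lies on the minus strand, and 52 bases before it in RARB. Of 35116 windows of this length, 12 (0.0342%) hold the repeat in this exact spelling, a share that says nothing of its other forms. Among the tested genes with a window, 5 hold it: CYP26A1, RARB and the ribosomal gene RPS24 (log2 0.86) were higher, and MAP1LC3C (log2 -3.50) and PHF8 (log2 -0.69) lower in KO CT1.0. The match is a description of these letters and shows no binding.

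GBX2, the hindbrain factor that opposes OTX2, stood at 0.313 and 0.182 TPM in KO CT0.4 and at 2.08 and 4.19 TPM in KO CT1.0 (log2 1.68, adjusted p = 0.00298). HOXA2, HOTAIRM1 and GBX2 were 3 of the 4 tested genes among 12 in the rostral hindbrain list. These 3 were higher, and the remaining 1 was called lower, as after scaling. HOXB1, HOXB2 and EGR2, which mark later hindbrain segments, were below 1 TPM in all 4 KO libraries. Of 24 genes of HOX groups 3 to 9 and CDX, which mark the posterior hindbrain and spinal cord, 0 passed the filter.

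**Figure D2:**
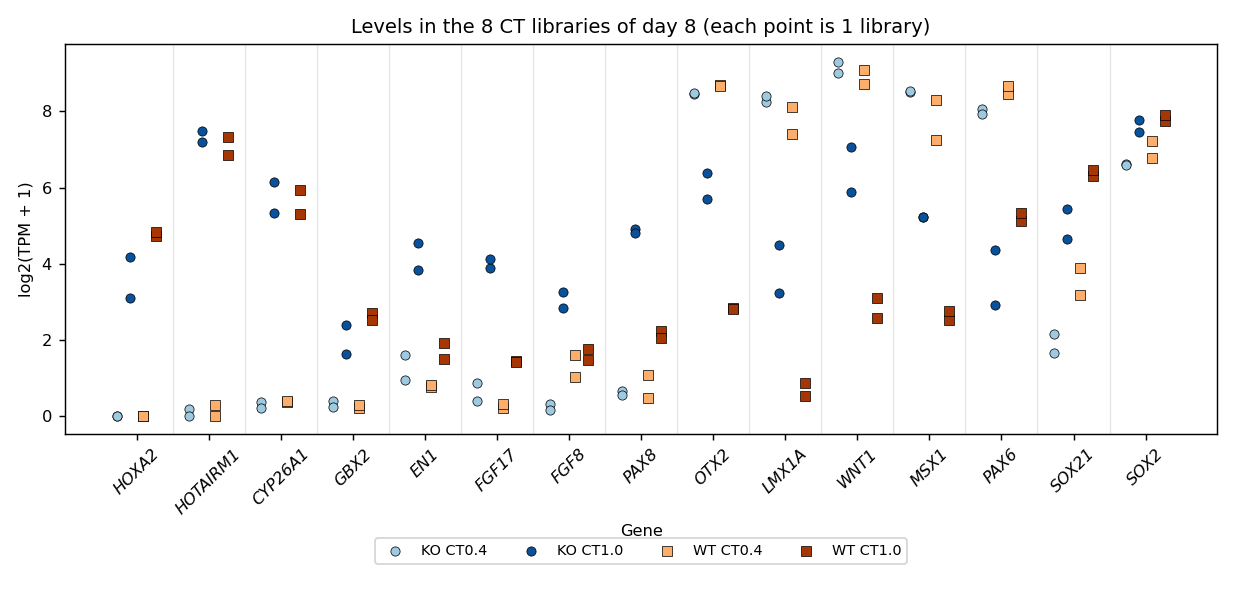
Level of 15 genes, as log2(TPM + 1), in each of the 8 CT libraries of day 8: circles are KO, squares WT, light colours CT0.4 and dark colours CT1.0, with 1 point a library. HOXA2, HOTAIRM1, CYP26A1 and GBX2, at the left, are near 0 in CT0.4 of both genotypes and higher in CT1.0, with GBX2 still low in KO CT1.0. The isthmus genes in the middle are highest in KO CT1.0, and OTX2, LMX1A, WNT1 and MSX1 in KO CT1.0 lie between WT CT1.0 and the CT0.4 libraries.

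Most genes of the isthmus and of FGF signalling were higher in KO CT1.0. FGF17, an FGF of the isthmus, held 0.319 and 0.804 TPM in KO CT0.4 and 13.8 and 16.5 TPM in KO CT1.0 (log2 3.38, SE 0.25, adjusted p = 4.66e-08). FGF8, the organizing signal of the isthmus, held 0.243 and 0.117 TPM against 6.14 and 8.61 TPM (log2 2.81, SE 0.34, adjusted p = 7.23e-06). FGFBP3, a secreted protein that binds FGFs, rose from 14.8 and 22.6 TPM to 143 and 176 TPM (log2 3.05, adjusted p = 2.83e-06). For each of these the KO CT1.0 libraries lay close together and far above KO CT0.4. The transcription factor PAX8 held 0.561 and 0.471 TPM against 29.3 and 26.9 TPM (log2 4.26, SE 0.50, adjusted p = 5.92e-06), and EN1, which shapes the midbrain and first hindbrain segment, held 2.05 and 0.914 TPM against 22.3 and 13.4 TPM (log2 2.92, SE 0.38, adjusted p = 1.68e-05).

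Among genes that FGF signalling itself switches on, DUSP6, a phosphatase that damps the ERK pathway, rose from 9.41 and 10.1 TPM to 38.2 and 49.9 TPM (log2 2.05, adjusted p = 0.000403). SPRY2, an FGF feedback inhibitor, rose from 12.1 and 11.4 TPM to 32.7 and 32.2 TPM (log2 1.39, adjusted p = 1.16e-06). PAX2 (log2 2.46, adjusted p = 7.03e-05) and EN2 (log2 1.52, adjusted p = 1.24e-05) rose too, EN2 to no more than 3.18 TPM. DUSP6, SPRY2, PAX2 and EN2, like ALDH1A2 above, were named after their values were seen. SPRED1, another inhibitor of this pathway, stood at 14.3 and 14.6 TPM against 15.2 and 14.1 TPM and was not called (log2 0.02, adjusted p = 0.936), nor was IL17RD (log2 0.13, adjusted p = 0.731), an FGF receptor inhibitor. In all, 10 of 14 tested members of the isthmus and FGF list were higher and 0 lower, with a median log2 fold change of 1.44, and the counts were the same after scaling.

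Most genes of the midbrain list were lower in KO CT1.0. OTX2 stood at 353 and 359 TPM in KO CT0.4 and at 82.6 and 50.7 TPM in KO CT1.0 lines 26 and 48 (log2 -2.44, SE 0.37, adjusted p = 7.24e-05). OTX1, its paralog, went from 230 and 230 TPM to 18.3 and 12.7 TPM (log2 -3.83, adjusted p = 1.24e-06). LMX1A, a factor of the roof plate and of the midbrain floor, went from 304 and 338 TPM to 21.3 and 8.35 TPM (log2 -4.48, SE 0.38, adjusted p = 1.85e-07). The groups did not overlap for these 3 genes, and in KO CT1.0 line 26 held more than line 48 of each. POU4F1, a factor of sensory and midbrain neurons, fell from 109 and 87.3 TPM to 3.97 and 6.49 TPM (log2 -4.02, adjusted p = 9.98e-08), and BARHL1, a homeobox gene of the dorsal midbrain and diencephalon, from 10.4 and 8.69 TPM to 0.207 and 0.309 TPM (log2 -3.06, adjusted p = 6.07e-07). TAL2, a factor of midbrain inhibitory neurons, was not called (log2 0.25, adjusted p = 0.652). Of 14 tested midbrain genes 10 were lower and 3 higher (EN1, EN2 and MEIS2), with a median of -2.56, and scaling left these counts as they were.

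Few forebrain genes were detected in either label. Of 19 listed, 7 were tested, with 3 lower and 1 higher. LHX9, a homeobox gene of the diencephalon and pretectum, stood at 6.16 and 4.31 TPM in KO CT0.4 and was listed at 0 in both KO CT1.0 libraries (adjusted p = 2.05e-08). VAX1, a ventral forebrain factor, fell from 4.83 and 5.75 TPM to 0.0638 and 0.0162 TPM (log2 -2.59, adjusted p = 3.35e-07). FEZF1, a forebrain repressor, rose from 0.716 and 0.528 TPM to 5.64 and 2.71 TPM (log2 1.62, adjusted p = 0.000159). SP8, a factor of the forebrain and isthmus, was at 33.5 and 30.0 TPM against 37.2 and 35.2 TPM and was not called (log2 0.18, adjusted p = 0.574).

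Most genes of the roof plate and BMP lists were lower in KO CT1.0, with medians of -1.47 and -1.18. MSX1, a BMP-induced factor of the dorsal midline, stood at 365 and 367 TPM in KO CT0.4 and at 36.7 and 36.2 TPM in KO CT1.0 (log2 -3.29, SE 0.33, adjusted p = 1.23e-06). PAX7, a factor of the dorsal neural tube, fell from 33.2 and 32.8 TPM to 3.60 and 3.35 TPM (log2 -2.93, adjusted p = 8.69e-08), and RSPO3, a secreted enhancer of WNT signalling, from 43.2 and 32.1 TPM to 4.75 and 3.17 TPM (log2 -2.96, adjusted p = 3.31e-06). In each the 2 lines of a label lay close together. MSX2, the paralog of MSX1, was at 52.8 and 60.1 TPM against 40.0 and 25.6 TPM and was not called (log2 -0.80, adjusted p = 0.0786). OLIG3, a factor of dorsal progenitors, was not called either (log2 -0.34, adjusted p = 0.437). Of 16 tested roof plate and dorsal genes 12 were lower and 1 higher. After scaling 11 of the 16 were lower and 1 higher.

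The BMP ligand GDF6 fell from 47.2 and 70.4 TPM to 0.460 and 0.923 TPM (log2 -5.13, adjusted p = 2e-09), and BMP4 from 83.2 and 81.5 TPM to 14.5 and 6.17 TPM (log2 -2.99, adjusted p = 4e-05). Inhibitors of the pathway fell with them: BAMBI, a decoy receptor, from 24.2 and 28.1 TPM to 3.48 and 1.75 TPM (log2 -2.95, adjusted p = 4.33e-07), and NOG, the secreted antagonist noggin, from 40.1 and 45.2 TPM to 6.41 and 5.27 TPM (log2 -2.68, adjusted p = 3.02e-07). CHRD, another antagonist, was not called (log2 0.25, adjusted p = 0.613). Of 17 tested genes 13 were lower and 2 higher, against 9 lower and 2 higher after scaling.

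The 10 genes with the lowest fold changes included several that the dorsal midline and the choroid plexus are known to express. TTR, transthyretin, the carrier of thyroid hormone made by the choroid plexus and liver, stood at 103 and 65.5 TPM in KO CT0.4 and at 0 and 0.338 TPM in KO CT1.0 (log2 -6.17, SE 0.34, adjusted p = 2.9e-09). VIT, vitrin, a matrix protein, went from 93.5 and 86.5 TPM to 1.25 and 1.25 TPM (log2 -5.34, SE 0.18, adjusted p = 1.27e-11). TAC1, the precursor of the neuropeptide substance P, went from 156 and 125 TPM to 1.79 and 1.20 TPM (log2 -5.83, adjusted p = 2.36e-09). The other 7 were FERD3L, a transcription factor of the midline (log2 -5.59), GDF6, the chemokine CCL2 (log2 -4.84), WNT2B, SAMD11 (log2 -4.74), the matrix gene EGFL6 (log2 -4.74) and LMX1A. None of the 10 overlapped between the labels, which the naming rule required, and none lost this call when any 1 of the 4 KO libraries was left out.

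WNT ligands were lower as a group, and the genes that WNT signalling switches on were divided. WNT1, a ligand of the midbrain midline and isthmus, stood at 632 and 511 TPM in KO CT0.4 and at 132 and 57.6 TPM in KO CT1.0 (log2 -2.69, SE 0.37, adjusted p = 3e-05). WNT2B, a ligand of the dorsal midline, fell from 240 and 258 TPM to 8.29 and 7.53 TPM (log2 -4.81, adjusted p = 1.92e-09), and WNT4 from 54.2 and 52.5 TPM to 3.38 and 6.55 TPM (log2 -3.24, adjusted p = 9.79e-05). WLS, the carrier that all WNT ligands need for secretion, fell from 1660 and 1726 TPM to 248 and 184 TPM (log2 -2.98, adjusted p = 1.1e-06). Levels in KO CT1.0 were below those in KO CT0.4 by several fold for these 4 genes, with no overlap. WNT7B rose from 1.71 and 1.16 TPM to 7.14 and 4.16 TPM (log2 1.42, adjusted p = 0.00151), and WNT8B (log2 -0.00, adjusted p = 0.996) and WNT5A (log2 0.08, adjusted p = 0.877) were not called. Of 13 tested members of the ligand list, WLS among them, 10 were lower and 1 higher, with a median of -2.32.

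AXIN2, the feedback gene most used as a readout of WNT signalling, went from 430 and 419 TPM to 68.3 and 60.0 TPM (log2 -2.71, SE 0.19, adjusted p = 4.61e-08). LGR5, an R-spondin receptor, fell from 13.6 and 11.7 TPM to 0.227 and 0.614 TPM (log2 -3.27, adjusted p = 4.47e-07) and APCDD1, a WNT inhibitor, from 213 and 199 TPM to 24.9 and 41.4 TPM (log2 -2.64, adjusted p = 6.4e-05). NKD2, an inhibitor of Dishevelled, rose from 3.27 and 5.29 TPM to 14.7 and 17.6 TPM (log2 1.72, adjusted p = 0.00147). LEF1, a WNT effector, was at 38.5 and 47.6 TPM against 46.3 and 44.7 TPM and SP5, a direct target, at 39.7 and 29.7 TPM against 21.8 and 30.3 TPM, and neither was called (adjusted p = 0.833 and 0.633). Of 11 tested feedback genes 3 were lower, 1 higher and 7 not called, a share of lower genes close to that of all genes, and after scaling 3 were lower and 2 higher.

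Among early neural genes PAX6 was lower in KO CT1.0, and 2 of 4 tested SOX B genes, SOX21 and SOX2, were higher (3 of 4 after scaling). PAX6, a factor of forebrain, hindbrain and eye progenitors, stood at 267 and 244 TPM in KO CT0.4 and at 6.53 and 19.4 TPM in KO CT1.0 (log2 -4.37, SE 0.34, adjusted p = 8.98e-08). SOX21, a SOX B factor that represses its targets, rose from 3.40 and 2.13 TPM to 23.9 and 42.0 TPM (log2 3.14, SE 0.26, adjusted p = 1.59e-07) and SOX2 from 96.5 and 95.1 TPM to 174 and 217 TPM (log2 1.01, SE 0.12, adjusted p = 6.76e-06). SOX3, the other close relative of SOX1, was at 18.2 and 15.7 TPM against 18.3 and 34.1 TPM, where line 48 alone was higher, and was not called (log2 0.54, adjusted p = 0.121). It was called after scaling (log2 0.80, adjusted p = 0.0254). SOX9, a factor of neural stem cells and neural crest, fell from 39.5 and 33.2 TPM to 8.48 and 7.09 TPM (log2 -2.09, adjusted p = 8.76e-08) and CDH2, neural cadherin, from 478 and 473 TPM to 134 and 163 TPM (log2 -1.68, adjusted p = 4.09e-08). Of 14 pan-neural genes 6 were lower and 2 higher, or 6 lower and 4 higher after scaling.

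Several NOTCH genes were higher in KO CT1.0. DLL1, a NOTCH ligand, rose from 13.6 and 12 TPM to 61.6 and 82.5 TPM (log2 2.39, adjusted p = 0.000251), MFNG, which modifies NOTCH receptors with sugar, from 1.71 and 1.13 TPM to 15.9 and 22.9 TPM (log2 3.06, adjusted p = 1.35e-06), and NRARP, a NOTCH feedback gene, from 7.39 and 6.85 TPM to 21.2 and 33.8 TPM (log2 1.78, adjusted p = 1.81e-05). HES5, the NOTCH target of neural stem cells, held 1.16 and 0.993 TPM against 8.10 and 24.4 TPM (log2 2.87, SE 0.58, adjusted p = 0.00109). Each was higher in both KO CT1.0 libraries, and line 48 was the higher of the pair. HES3, a related repressor of the isthmus and neural stem cells, held 0.422 and 0.322 TPM against 14.2 and 73.5 TPM (log2 4.62, adjusted p = 9.92e-06). HES4 (log2 1.27, adjusted p = 0.0569) and LFNG (log2 0.57, adjusted p = 0.128) were not called. Of 15 tested NOTCH genes 6 were higher and 3 lower, or 8 and 1 after scaling. Among the 10 highest genes were also PAPLN, a matrix protein (log2 3.84), and the noncoding LINC00403 (log2 3.41).

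Neuronal genes went both ways, with 4 higher and 5 lower of 20. MAP2, a microtubule protein of neurons, fell from 338 and 406 TPM to 138 and 127 TPM (log2 -1.47, adjusted p = 1.21e-05), ONECUT1, a factor of early neurons, rose from 1.77 and 1.75 TPM to 6.68 and 7.02 TPM (log2 1.51, adjusted p = 0.00218), and TUBB3, neuronal tubulin, was at 242 and 269 TPM against 97.3 and 239 TPM and was not called (log2 -0.74, adjusted p = 0.0884). Axon guidance genes had 11 lower and 3 higher of 30 (8 and 5 after scaling). The netrin receptor UNC5D fell from 92.0 and 89.2 TPM to 4.6 and 2.44 TPM (log2 -4.38, adjusted p = 7.97e-10), the ephrin receptor EPHA7 from 455 and 484 TPM to 37.4 and 40.4 TPM (log2 -3.56, adjusted p = 2e-09) and the midline repellent SLIT2 from 53.3 and 43.7 TPM to 5.54 and 3.98 TPM (log2 -3.11, adjusted p = 7.73e-07). These 3 did not overlap between labels. Sonic hedgehog itself was below 0.1 TPM in all 4 KO libraries, and of 6 tested ventral genes 2 were lower and 0 higher (1 lower after scaling).

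Markers of other cell types moved too, and their part in the results above was not tested. The summed TPM of 12 mesenchyme genes was 790 to 1080 in KO CT0.4 and 340 to 382 in KO CT1.0, with POSTN listed at 0 in both KO CT0.4 libraries and 4 of the 12 below 1 TPM in each group. LUM, a matrix proteoglycan, fell from 19.1 and 19.4 TPM to 0.472 and 1.58 TPM (log2 -3.38, adjusted p = 1.31e-07) and COL3A1 from 20.6 and 69.9 TPM to 2.89 and 5.01 TPM (log2 -3.02, adjusted p = 7.99e-06). Of 8 tested mesenchyme genes 5 were lower and 0 higher (4 lower after scaling). The 13 surface ectoderm genes summed to 314 to 319 TPM against 76.4 to 104 TPM, with KRT5 listed at 0 in all 4 libraries and KRT19, a keratin of simple epithelia, falling from 98.7 and 110 TPM to 16.7 and 12.6 TPM (log2 -2.76, adjusted p = 4.23e-08).

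The 12 neural crest genes summed to 73.3 to 149 TPM in KO CT0.4 and 132 to 144 TPM in KO CT1.0, with 2 of 12 higher, 2 lower (3 and 2 after scaling) and none listed at 0 in both libraries of a group. SOX10, which defines the crest, stood at 5.05 and 0.413 TPM in KO CT0.4 lines 26 and 48 and at 3.82 and 2.56 TPM in KO CT1.0. Line 26 was thus the only KO CT0.4 library with more than 1 TPM of it. Of 14 pluripotency genes, which summed to 691 to 762 and 592 to 594 TPM, 5 were tested: POU5F1 rose from 0.827 and 1.7 TPM to 3.41 and 5.51 TPM (log2 1.27, adjusted p = 0.00204), and LIN28A, which early neural cells also express and which made up most of the sum, was lower (log2 -0.46, adjusted p = 0.000866) but not after scaling (log2 -0.19, adjusted p = 0.137). The 11 mesendoderm genes summed to 12.2 to 15.4 TPM and 4.39 to 5.26 TPM, with EOMES and GATA4 listed at 0 in all 4 libraries. For 6 placode genes the sums were 8.26 to 11.2 TPM and 13.5 to 16.0 TPM.

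Among housekeeping groups, 77 of 82 tested ribosomal protein genes were higher and 0 lower, with a median log2 fold change of 0.80. Cell cycle genes had 3 higher and 5 lower of 19, which became 6 and 2 after scaling. CCND2, a D cyclin, rose from 9.96 and 9.89 TPM to 44.1 and 36.5 TPM (log2 1.91, adjusted p = 1.88e-07), and CCND1, its relative, fell from 112 and 131 TPM to 53.6 and 78.9 TPM (log2 -0.88, adjusted p = 0.000706). Of 14 hypoxia and glycolysis genes 6 were higher and 1 lower (9 and 1 after scaling), the latter EGLN3, an oxygen sensor, which fell from 45.2 and 54.0 TPM to 4.19 and 5.37 TPM (log2 -3.13, adjusted p = 6.17e-08). LDHA, lactate dehydrogenase, rose from 47.8 and 29.7 TPM to 102 and 92.4 TPM (log2 1.34, adjusted p = 0.00188). Cell stress genes had 2 higher and 6 lower of 14, or 2 and 3 after scaling, and ATF3, a stress-induced factor, fell from 49.3 and 58.0 TPM to 26.6 and 19.1 TPM (log2 -1.21, adjusted p = 0.000382).

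The same label comparison in WT rests on other libraries and shares none with KO. In WT, 1291 genes (6.35%) were higher and 3039 (15.0%) lower in CT1.0, 21.3% in all, or 1796 (8.84%) and 2194 (10.8%) after scaling. The genes called higher in both were 513, which is 38.7% of the KO list and 39.7% of the WT list, and those called lower in both were 2032, which is 37.1% and 66.9%. Called in opposite directions were 33 of the genes higher in KO and 44 of those lower in KO. Over 19008 genes tested in both, which are not independent, the fold changes correlated at 0.51. Of 352 genes that WT CT1.0 held lower by at least 2 on the log2 scale and that were tested in KO, 301 (85.5%) were also called lower in KO, with a median of -2.24 in KO and -2.71 in WT. Of 130 so tested that WT CT1.0 held higher by that much, 87 (66.9%) were called higher in KO, with medians of 1.40 and 2.56. These genes were chosen by their WT values, which places the WT medians at the larger end. WT genes that did not pass the filter in KO, such as any silent under both KO labels, are left out. This may raise the shares of 85.5% and 66.9%. Chosen by KO values instead, 340 lower genes had medians of -2.65 in KO and -2.37 in WT, and 117 higher genes had 2.62 and 1.39.

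**Figure D3:**
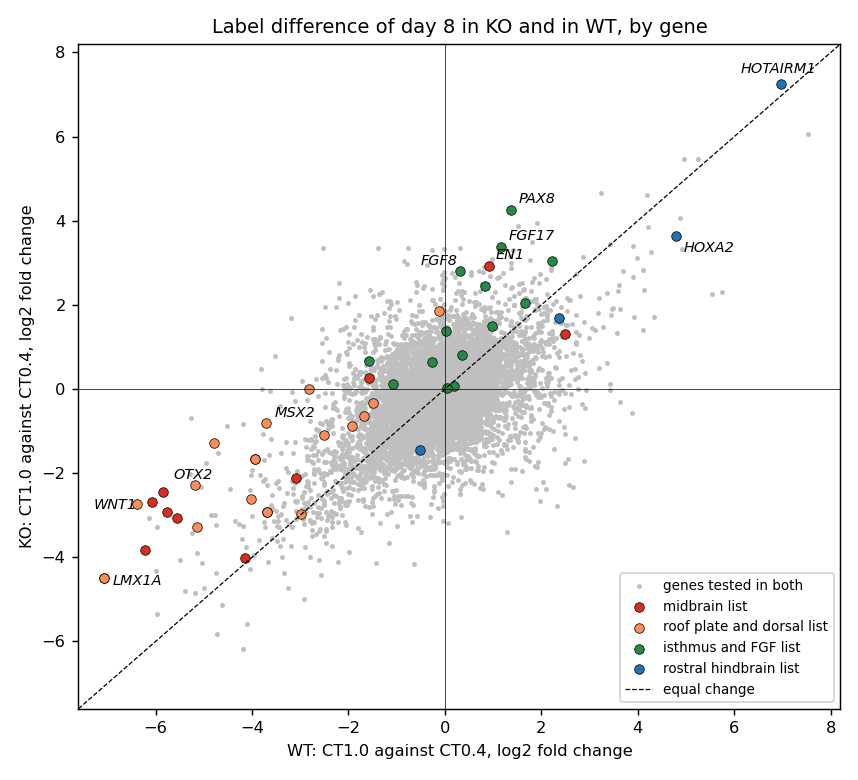
Log2 fold change of CT1.0 against CT0.4 on day 8 in WT (x axis) and KO (y axis) for each gene tested in both (grey), with 4 lists in colour, genes of both the midbrain and the roof plate list drawn as roof plate, and a dashed line of equal change. HOTAIRM1 lies near the line at 6.96 and 7.26, whereas OTX2 (-5.85 and -2.44) and LMX1A (-7.07 and -4.48) lie above it and so do FGF17 (1.17 and 3.38) and PAX8 (1.37 and 4.26).

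The difference between the KO and WT changes was tested as an interaction over the 8 CT libraries of day 8. It called 509 of 22942 genes (2.22%) with a more positive change in KO and 1020 (4.45%) with a more negative one, or 690 (3.01%) and 479 (2.09%) after scaling. This count rests on few libraries. A fit of the 8 compared libraries alone called 6 genes, OTX2 among them. Leaving out any 1 of the 8 gave fewer calls than the main fit, except KO CT1.0 line 48, without which there were more. The fall was largest without KO CT1.0 line 26.

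Of 5 tested rostral hindbrain genes the interaction was called for 1, with a more negative change in KO, as after scaling. It was not called for HOXA2, HOTAIRM1 or, outside this list, CYP26A1 and AXIN2. HOXA2 held 25.6 and 27.7 TPM in WT CT1.0 lines 1 and 2, above both KO CT1.0 libraries, with 0 listed for WT CT0.4 (interaction -1.15, SE 0.75, adjusted p = 0.377). HOTAIRM1 held 114 and 161 TPM in WT CT1.0 (interaction 0.30, SE 0.81, adjusted p = 0.871), and CYP26A1 60.3 and 38.8 TPM (0.22, SE 0.77, adjusted p = 0.906). The KO and WT ranges overlapped for both. AXIN2 gave 0.01 (SE 0.28, adjusted p = 0.991), with 48.4 and 38.5 TPM in WT CT1.0. SEs of this size leave room for differences that the test would not call.

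Most midbrain and roof plate genes had a more positive change in KO. OTX2 stood at 6.19 and 5.99 TPM in WT CT1.0 against 413 and 403 TPM in WT CT0.4, so that it was nearly level with KO in CT0.4 and below it in CT1.0 (interaction 3.41, SE 0.52, adjusted p = 0.00211). WNT1 stood at 7.48 and 4.98 TPM in WT CT1.0, against 548 and 420 TPM in WT CT0.4 (interaction 3.39, SE 0.52, adjusted p = 0.00233). BARHL1 was near 0 in CT1.0 of both genotypes and stood at 30.5 and 74.3 TPM in WT CT0.4, above the 10.4 and 8.69 TPM of KO CT0.4 (2.50, adjusted p = 0.00306). ZIC1, a dorsal neural factor, held 5.23 and 0.728 TPM in WT CT1.0 against 74.4 and 51.3 TPM in KO CT1.0 (3.65, adjusted p = 0.00347), and GDF7, the roof plate BMP ligand, 1.80 and 0.998 TPM against 55.8 and 24.1 TPM (3.51, adjusted p = 0.000197). MSX2, not called within KO, fell in WT to 1.74 and 0.597 TPM (interaction 2.93, adjusted p = 0.0027). LMX1A held 0.827 and 0.447 TPM in WT CT1.0 (2.59, SE 0.54, adjusted p = 0.0115, or 0.0688 without KO CT1.0 line 26). Of 15 midbrain genes 10 had a more positive change in KO and 0 a more negative one, and of 16 roof plate genes 12 and 0. Scaling reversed none of these named genes.

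Of 14 isthmus and FGF genes 6 had a more positive change in KO, 0 a more negative one and 8 no called difference. FGF17 held 1.74 and 1.65 TPM in WT CT1.0 against 13.8 and 16.5 TPM in KO CT1.0 (interaction 2.21, SE 0.35, adjusted p = 0.00239), and FGF8 2.38 and 1.77 TPM against 6.14 and 8.61 TPM (2.51, SE 0.48, adjusted p = 0.0074). PAX8 held 3.72 and 3.13 TPM in WT CT1.0 (2.89, SE 0.71, adjusted p = 0.0247) and EN1 2.74 and 1.81 TPM (2.01, SE 0.54, adjusted p = 0.035). These last 2 calls ended without KO CT1.0 line 26 (adjusted p = 0.1 and 0.172), KO CT0.4 line 48 (0.0755 and 0.136), WT CT0.4 line 1 (0.0724 and 0.0705), WT CT1.0 line 1 (0.0737 and 0.075) or WT CT1.0 line 2 (0.0617 and 0.0987), and further without KO CT0.4 line 26 for PAX8 (0.056) and WT CT0.4 line 2 for EN1 (0.0928). Within WT, FGF17 was called higher in CT1.0 (log2 1.17, adjusted p = 0.00216), and FGF8 (log2 0.31, adjusted p = 0.593), EN1 (log2 0.91, adjusted p = 0.104) and PAX8 (log2 1.37, adjusted p = 0.0603) were not called. WNT7B (3.98, adjusted p = 0.000138) and WNT8B (3.80, adjusted p = 2.04e-05) fell in WT CT1.0, WNT8B from 16.0 and 31.5 TPM to 0.935 and 0.465 TPM, while in KO WNT7B rose and WNT8B was not called. NOS2, an inducible nitric oxide synthase (4.59, adjusted p = 0.000426), fell in WT from 41.6 and 108 TPM to 0.770 and 0.768 TPM and stood at 10.3 and 3.56 TPM in KO CT1.0, while HIST1H1D, a linker histone (4.11, adjusted p = 0.00233), held 18.9 and 8.11 TPM in KO CT1.0 and no more than 1.5 TPM elsewhere among the 8.

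Several genes with a more negative change in KO were ones that WT CT1.0 held at a higher level. SFRP4, a secreted WNT antagonist, stood at 41.6 and 30.3 TPM in WT CT1.0 and at 0.937 and 2.28 TPM in KO CT1.0 (interaction -3.69, adjusted p = 0.00193). CAV1, the main protein of caveolae, stood at 11.1 and 7.41 TPM against 0.0335 and 0.332 TPM (-3.25, adjusted p = 0.000138), and PI15, a peptidase inhibitor, at 10.1 and 9.04 TPM against 0.318 and 1.28 TPM (-3.13, adjusted p = 0.000166). In each the KO and WT CT1.0 libraries were far apart. TUBB3 rose in WT to 606 and 514 TPM (-1.97, adjusted p = 0.0184), a call that ended without KO CT1.0 line 26 (0.092), KO CT0.4 line 48 (0.0657), WT CT1.0 line 1 (0.0793) or WT CT0.4 line 2 (0.0748). SOX9 fell further in KO than in WT, where it stood at 12.3 and 12.7 TPM in CT1.0 (-1.18, adjusted p = 0.00902).

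The naming rule for this interaction also returned short genes. Among the 6 highest were MIR4261, MIR1307 and the mitochondrial MT-TA, and among the 6 lowest MT-TE, MIR661, MIR4256, MIR6835 and MIR548AT. Each but MIR6835 was listed at 0 in at least 2 of the 8 libraries. ZIC1, GDF7, CAV1 and PI15 above were named from the longer gene types after these values were seen.

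The 2 KO lines differed in some gene lists in CT1.0 and not in others. Of 14 midbrain genes 7 were higher in line 48 and 7 in line 26 (median difference -0.03, log2, line 48 minus line 26), and the isthmus and FGF list split 7 to 7 as well (0.03). Among single genes, chosen after their values were seen, OTX2, WNT1, LMX1A and GDF7 were higher in line 26, at 82.6, 132, 21.3 and 55.8 TPM, than in line 48, at 50.7, 57.6, 8.35 and 24.1 TPM. HOXA2, HES3 and CRABP1 were higher in line 48. Of 16 roof plate and dorsal genes 15 were higher in line 26, with a median of -0.50, and of 20 neuronal genes 19 were higher in line 48, with a median of 0.55. Of the 130 genes that WT CT1.0 held higher, 109 (83.8%) were higher in line 48, and of the 352 that it held lower, 115 (32.7%) were, against 56.3% of all tested genes. In KO CT0.4 these shares were 36.2%, 47.7% and 49.6%. The neuronal list went the other way there: 17 of the 20 genes were higher in line 26 and 3 in line 48 (median -0.45). With 1 library a line and label, these differences have no replicate and no test.

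**Figure D4:**
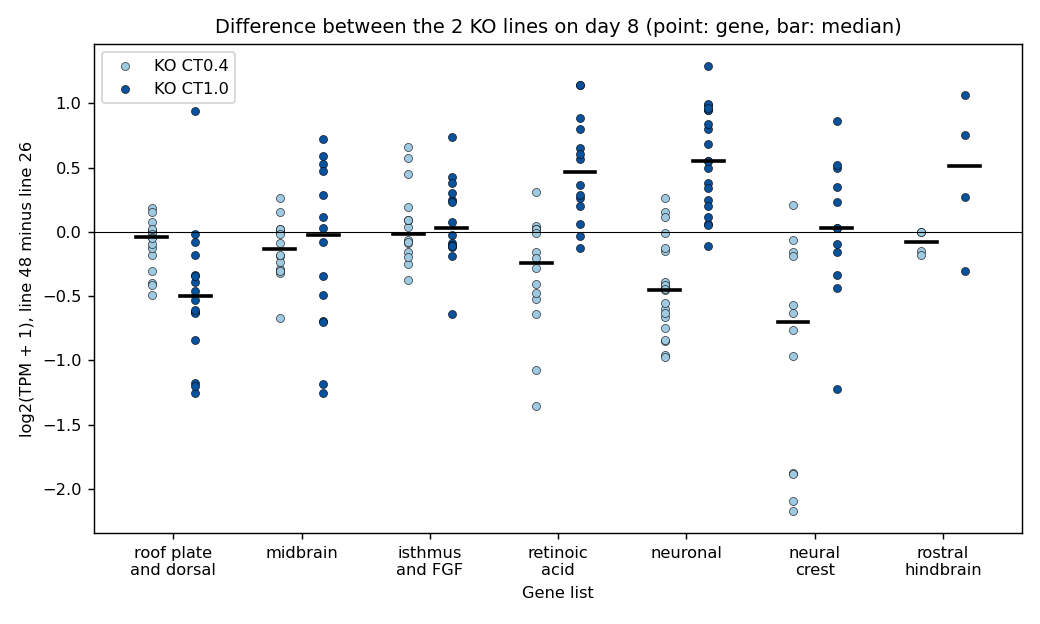
Difference in log2(TPM + 1) between KO line 48 and KO line 26 on day 8 for each tested gene of 7 lists, in CT0.4 (light) and CT1.0 (dark), with a bar at each list's median. In CT1.0 most roof plate genes lie below 0 (median -0.50) and most neuronal genes above it (median 0.55). In CT0.4 most neural crest genes (median -0.70) and most neuronal genes (median -0.45) lie below 0.

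In KO CT0.4 the lines differed in neural crest genes, though not in these alone. Of 12 crest genes 11 were higher in line 26, with a median of -0.70. Of 15 NOTCH genes 13 were higher in line 26, and of 19 cell cycle genes 17 were higher in line 48. TFAP2B, a crest factor, stood at 14.6 and 3.23 TPM in lines 26 and 48. It was called higher in KO CT1.0 (log2 1.5, adjusted p = 0.0136), with 20.2 and 23.9 TPM there. The call ended without the KO CT0.4 library of line 48 (adjusted p = 0.31) and without the KO CT1.0 library of line 48 (adjusted p = 0.0703). FOXD3, an early crest factor, stood at 4.42 and 0.478 TPM in KO CT0.4 and at 2.42 and 0.462 TPM in KO CT1.0, higher in line 26 under both labels.

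The KO libraries of day 4 carry the same line numbers and are other libraries. There 235 genes (1.14%) were higher and 409 (1.98%) lower in CT1.0 of 20630, or 269 (1.3%) and 301 (1.46%) after scaling. Of the genes called higher on day 4, 87 (37.0%) were higher on day 8, and of those called lower, 254 (62.1%) were lower on day 8. These are 6.57% and 4.64% of the day 8 lists. The test of the difference between the days called 536 genes (2.3%) with a more positive and 2066 (8.87%) with a more negative change on day 8, or 845 (3.63%) and 1082 (4.64%) after scaling.

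Some of the genes were already apart on day 4, when 2 of 3 tested rostral hindbrain genes were higher and 3 of 14 pan-neural genes lower. Of 9 tested forebrain genes 8 were lower and 0 higher (7 lower after scaling), with a median log2 fold change of -1.43. Over 11 forebrain genes the change was more positive on day 8 for 6 and more negative for 2. Midbrain genes had 7 of 13 lower and 1 higher, and isthmus and FGF genes 7 of 15 higher and 0 lower. HOTAIRM1 stood at 0.335 and 0 TPM in KO CT0.4 and at 5.81 and 49.9 TPM in KO CT1.0 lines 26 and 48 (log2 4.01, adjusted p = 0.000955), and CYP26A1 at 2.86 and 1.88 against 18.5 and 118 TPM (log2 3.85, adjusted p = 0.00093). As on day 8, line 48 held more of both genes. OTX2 stood at 394 and 489 TPM against 151 and 58.5 TPM (log2 -2.21, adjusted p = 0.0036), a change that did not differ from that of day 8 by the test (difference -0.23, adjusted p = 0.846). PAX6 was lower as well (log2 -3.39, adjusted p = 3.36e-05). FEZF1, higher in KO CT1.0 on day 8, was lower there on day 4, at 81.5 and 55.9 TPM against 20.9 and 10.9 TPM (log2 -2.08, adjusted p = 0.000315). Its difference between the days was 3.70 (adjusted p = 9.89e-06). SP8, not called on day 8, was lower on day 4 (log2 -1.32, adjusted p = 0.00359). HOXA2 held 0.899 and 11.3 TPM in KO CT1.0 and did not pass the filter of day 4.

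Of 9 roof plate genes tested on day 4, 3 were lower and 1 higher, and of 10 WNT ligand genes 2 were lower and 0 higher. LMX1A, at 7.58 and 3.78 TPM against 1.59 and 0.437 TPM (log2 -1.73, adjusted p = 0.0195), and MSX1, at 13.9 and 12.9 TPM against 5.17 and 2.28 TPM (log2 -1.68, adjusted p = 0.0115), were already lower. The change was more negative on day 8 for 8 of 16 roof plate genes (4 after scaling), LMX1A (difference -2.74, adjusted p = 0.00285) and MSX1 (-1.62, adjusted p = 0.035) among them. WNT1 stood at 32.0 and 17.1 TPM in KO CT0.4 and 50.5 and 25.6 TPM in KO CT1.0 on day 4 and was not called (log2 0.60, adjusted p = 0.441), and the difference between the days was -3.29 (adjusted p = 0.000551). WNT2B was at 1.01 and 0.932 TPM against 1.03 and 1.40 TPM, and TTR and FERD3L were listed at 0 in all 4 KO libraries of day 4. AXIN2 held 73.5 and 63.5 TPM against 56.9 and 45.4 TPM (log2 -0.42, adjusted p = 0.276), with a difference between the days of -2.29 (adjusted p = 5.24e-05). FGF17 was called on both days, at 2.88 and 2.57 TPM against 7.66 and 5.17 TPM on day 4 (log2 0.98, adjusted p = 0.0395), and its change was larger on day 8 (difference 2.41, adjusted p = 0.000245).

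HES3 and SOX21 show another course. On day 4 HES3 held 175 and 185 TPM in KO CT0.4 and 137 and 128 TPM in KO CT1.0, and by day 8 it stood below 1 TPM in KO CT0.4 and at 14.2 and 73.5 TPM in KO CT1.0 (difference between the days 5.06, adjusted p = 0.000551). SOX21 held 73.3 and 78.6 TPM against 47.2 and 49.7 TPM on day 4, and 3.40 and 2.13 against 23.9 and 42.0 TPM on day 8 (difference 3.78, adjusted p = 7.34e-06). Both genes thus stood lower on day 8 than on day 4 under either label, most of all in CT0.4. SNAI2, a factor of migrating crest cells, was higher in CT1.0 on day 4, at 8.30 and 26.3 TPM against 1.20 and 0.777 TPM (log2 3.01, adjusted p = 0.000139), and not on day 8 (log2 -0.78, adjusted p = 0.0923, difference -3.79, adjusted p = 8.22e-05).

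**Figure D5:**
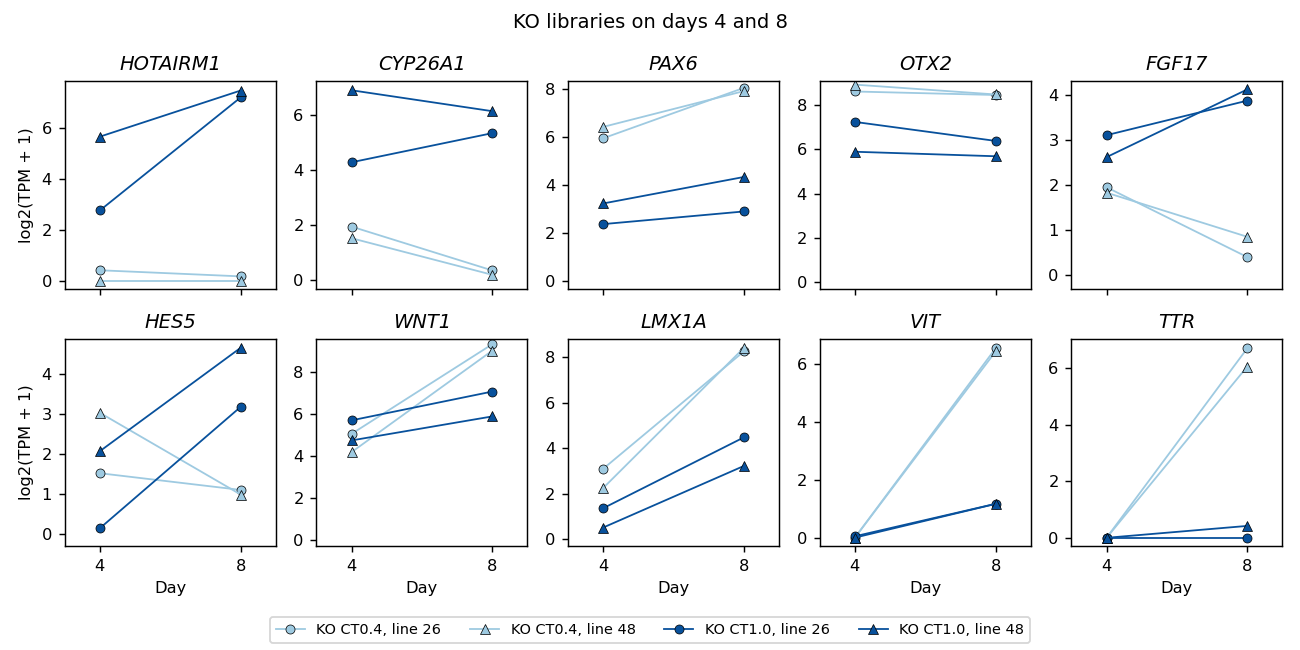
Level of 10 genes, as log2(TPM + 1), in each KO library of days 4 and 8, with CT0.4 light, CT1.0 dark, line 26 as circles and line 48 as triangles, and lines joining the same line number and label. HOTAIRM1, CYP26A1, PAX6 and OTX2 differ between the labels on both days, and LMX1A, WNT1, VIT and TTR reach their high level in CT0.4 by day 8.

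The count of 6794 called genes rests on a spread pooled over the 14 groups of the series. With the 4 libraries alone it was 2925 (581 higher and 2344 lower), and without line 26 throughout it was 3651. The 6 genes that mark the comparison are HOXA2, HOTAIRM1, EN1, LMX1A, OTX2 and FGF17. All kept their direction and call in each of these fits, in each fit without 1 of the 4 KO libraries and after scaling. They were chosen with earlier results of these same data known, so this is no separate support for the comparison.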

How the data were processed

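Poly(A)-selected RNA of 28 libraries was sequenced. The authors deposited 1 table of TPM for 58219 genes. CASAVA 1.7, Salmon 0.8.2 and hg38 are named in the submitters' processing notes, without the role or settings of each. TPM keeps no read depth, so the precision that depth gives is unknown. The deposited TPM values were taken as log2(TPM + 1) and fitted with limma 3.58.1 (R 4.3.3) with 1 mean for each of 14 groups of 2 libraries and an intensity trend, over 27912 genes. P-values were adjusted by Benjamini and Hochberg within each comparison over genes of at least 1 TPM in at least 2 compared libraries, and 0.05 was the threshold. The pooled fit has 14 residual degrees of freedom. Median-ratio scaling was the main alternative. On simulated data for the KO comparison, 70% of genes changed by 1 (log2) and 94% of those changed by 2 were recovered. Of its calls 7.34% were false, and for the interaction the values were 51%, 80% and 8.39%. The simulation changed few genes, none of them near 0 TPM, with independent normal noise and no shift in ribosomal share. Its rates hold for that setting and are not those of the calls reported here.

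The samples, gene lists and rules were chosen with earlier results of these data known. Named genes were SOX1 and 6 markers, the 10 highest and 10 lowest called genes without overlap, up to 4 called and 2 uncalled members of each list, and the 6 and 4 most extreme called genes at each end of the interactions with genotype and day, leaving out clone names, pseudogenes, ribosomal protein genes and repeated names. Gene coordinates follow GENCODE 29, and promoter windows are from RefSeq, GRCh38.p14. Genes named outside the rule are marked in the text. A few genes returned by this rule are left out of the text.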

Additional observations from a re-analysis of the deposited data

Results flagged for a closer look

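In these genes the CT1.0 against CT0.4 change differed between KO and WT by limma's interaction test (values are KO change minus WT change, log2, adjusted p under 0.05). More positive in KO were the regional genes OTX2 (3.41), WNT8B (3.80), WNT1 (3.39), ZIC1 (3.65), GDF7 (3.51), MSX2 (2.93), MSX1 (1.84), LMX1A (2.59), OTX1 (2.38), BARHL1 (2.50), TAL2 (1.82), FEZF1 (2.31), EN1 (2.01), PAX8 (2.89), FGF17 (2.21), FGF8 (2.51), IL17RD (1.20), SPRY2 (1.37) and EN2 (1.26). Also more positive were the signalling genes WNT7B (3.98) and SP5 (3.02) and the genes NOS2 (4.59), HIST1H1D (4.11) and KRT18 (1.02). More negative in KO were TTR (-1.99), EGFL6 (-1.49), SOX9 (-1.18), PROM1 (-1.34), TUBB3 (-1.97), NGFR (-1.61), SFRP4 (-3.69), CAV1 (-3.25) and PI15 (-3.13). So were SLC15A3 (-3.45), DANT1 (-3.36), MIR217HG (-3.27), NPIPA5 (-3.09), LINC01314 (-3.04) and SOX1 itself (-2.16). SOX1 is the gene knocked out, so its value is no separate result. When each of the 8 libraries was left out in turn, the call ended in 8 of 8 fits for SP5 (highest adjusted p 0.102), in 7 for IL17RD (0.153), SLC15A3 (0.159) and MIR217HG (0.176), and in 6 for EN1 (0.172), PAX8 (0.1), TAL2 (0.156), MSX1 (0.11), KRT18 (0.201) and DANT1 (0.118). It ended in 5 for SOX1 (0.13) and TTR (0.121), in 4 for EGFL6 (0.0729), OTX1 (0.102), PROM1 (0.116), TUBB3 (0.092) and NGFR (0.142), in 2 for NPIPA5 (0.0533) and in 1, without KO CT1.0 line 26, for LMX1A (0.0688). The highest adjusted p came without WT CT1.0 line 1 for EGFL6, TAL2, MSX1 and NPIPA5, without WT CT0.4 line 2 for DANT1, without KO CT0.4 line 48 for SP5, and without KO CT1.0 line 26 for the rest.

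The KO change also differed between day 8 and day 4 by the same kind of test. It was more positive on day 8 for HOTAIRM1 (3.25), EN1 (1.83), FGF17 (2.41), HES3 (5.06) and HES5 (4.04), and more negative for LMX1A (-2.74), TTR (-6.17), FERD3L (-5.59), TAC1 (-5.50) and VIT (-5.36). TTR and FERD3L were listed at 0 in all 4 KO CT libraries of day 4, so their day difference is that of day 8. TAC1 and VIT were below 1 TPM in each of these libraries and did not pass the filter of day 4, so theirs is mostly that of day 8.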

How the results depend on the processing

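The counts of called genes, 6794 for KO on day 8, 1529 for the KO and WT difference, 4330 for WT, 644 for KO on day 4, 2602 for the day difference and 2545 called in both KO and WT, were within 1.5 times under pseudocount 0.1, no filter, scaling and the other alternatives tried, apart from those given here. Fitted on the compared libraries alone they were 2925, 6, 2225, 0, 718 and 1057. The 0 for day 4 is limma's, where 2556 of 20630 genes (12.4%) had an unadjusted p under 0.05. Counting genes past 1 on the log2 scale in either direction they were 2197, 738, 1740, 289, 1395 and 855, and at an adjusted p under 0.01 they were 4510, 276, 2568, 179, 1277 and 1593. Without a trend and with robust variances the day 4 count was 391. Leaving out libraries or line numbers gave 3651 to 6040, 80 to 2563, 1363 to 3150, 103 to 478, 999 to 2575 and 1018 to 2352. The cause of these moves was not tested, beyond the fewer samples or stricter threshold. CCNB1, not called at -0.02, was called at 0.25 after scaling. Line numbers pair the samples only by number: 8 of 21 KO group pairs had correlated deviations over 0.1 and 0 of 21 WT pairs did, and with the replicate block the counts were 6867, 1779, 4446, 710, 2659 and 2601.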
